A study of Rattus norvegicus with 12 samples.

Results

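The 39 genes described here encode proteins that copy DNA or divide the cell. They were chosen by gene symbol, and all 39 were found among the 34322 genes of the count tables. RNA of whole hearts was sequenced from male WT rats of the SD strain, weighing 180 to 200 g. They received sorafenib, a kinase inhibitor used against cancer, by gavage at 50 mg/kg once a day, or an equal volume of deionized water. The 4 groups of 3 libraries each were sorafenib for 28 days, water for 28 days, sorafenib for 14 days and water for 14 days. The study's title names heart toxicity and splicing by RBM20, and the comparisons below ask how these genes differed between treated and water-fed hearts. Nothing in the labels ties each library to a separate animal. The p-values below therefore reflect the variation among libraries, which may be technical.

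A dividing cell first loads the MCM helicase onto its replication origins and makes nucleotides, under the control of E2F transcription factors, and later builds a spindle, separates its chromosomes and splits, under B-type cyclins, CDK1 and the factor FOXM1. In the adult heart most cardiomyocytes have left this cycle, so transcripts of these genes are scarce in heart tissue and can come from dividing endothelial cells, fibroblasts or macrophages. In bulk tissue, fewer cells of a type and less RNA per cell cannot be told apart. By role, the genes are 6 subunits of the replication helicase, 4 genes of DNA synthesis and nucleotide supply, 6 cyclins, kinases and transcription factors, 8 mitotic kinases and checkpoint or passenger proteins, 2 genes of the anaphase-promoting complex, 11 genes of spindle, kinetochore and cytokinesis, and 2 of chromosome structure.

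The promoters of Mcm3 and Mcm5 are shown as examples from the set that separated at day 14, and those of Top2a and Prc1 from the set of day 28. RefSeq sequence of build GRCr8, from 250 bases before to 50 after the annotated start, was at hand for 30 of the 39 genes. Mcm4, Rrm2, E2f1, Foxm1, Ccna2, Aurkb, Ube2c, Tpx2 and Racgap1 were not matched. Capitals mark an E2F word (TTCCCGC or TTGGCGC), a cell cycle homology region word, CHR (TTTGAA or TTCGAA), or a CCAAT box (CCAAT), each on either strand. An E2F word and a CCAAT box can share bases, as can a CHR and a CCAAT box. The lines give the Mcm3 promoter at chr9:30733697-30733996 on the minus strand, the Mcm5 promoter at chr19:13488563-13488862 on the plus strand, the Top2a promoter at chr10:84473044-84473343 on the minus strand and the Prc1 promoter at chr1:143659231-143659530 on the plus strand.
Mcm3: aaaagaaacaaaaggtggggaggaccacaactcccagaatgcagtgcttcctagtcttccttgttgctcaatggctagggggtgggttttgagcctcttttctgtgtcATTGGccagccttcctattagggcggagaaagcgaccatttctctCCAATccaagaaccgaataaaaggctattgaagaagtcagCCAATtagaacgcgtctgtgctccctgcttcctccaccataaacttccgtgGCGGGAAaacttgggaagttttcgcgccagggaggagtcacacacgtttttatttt
Mcm5: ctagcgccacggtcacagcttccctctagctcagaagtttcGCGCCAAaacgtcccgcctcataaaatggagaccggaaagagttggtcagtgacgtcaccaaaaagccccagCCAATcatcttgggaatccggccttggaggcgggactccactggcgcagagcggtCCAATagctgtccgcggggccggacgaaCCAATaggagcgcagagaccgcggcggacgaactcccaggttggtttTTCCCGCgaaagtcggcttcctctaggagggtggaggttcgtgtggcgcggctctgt
Top2a: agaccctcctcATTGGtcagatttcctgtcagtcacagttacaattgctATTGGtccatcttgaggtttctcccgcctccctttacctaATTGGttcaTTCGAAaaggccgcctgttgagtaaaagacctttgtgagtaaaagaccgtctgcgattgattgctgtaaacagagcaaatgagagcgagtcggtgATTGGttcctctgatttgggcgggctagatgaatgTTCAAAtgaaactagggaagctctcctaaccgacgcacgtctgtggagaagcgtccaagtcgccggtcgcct
Prc1: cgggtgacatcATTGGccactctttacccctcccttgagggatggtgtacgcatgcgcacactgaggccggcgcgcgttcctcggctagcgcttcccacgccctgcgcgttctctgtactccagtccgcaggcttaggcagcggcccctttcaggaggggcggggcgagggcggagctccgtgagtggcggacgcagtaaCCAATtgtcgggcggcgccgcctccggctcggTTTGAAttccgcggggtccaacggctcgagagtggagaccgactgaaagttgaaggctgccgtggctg

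The Mcm3 window held 1 E2F word beside the start and no CHR, and the Mcm5 window held 2 E2F words and no CHR. The Top2a window held 2 CHR words and 4 CCAAT boxes, and the Prc1 window held 1 CHR and 2 CCAAT boxes, both without an E2F word. Other genes of the 2 sets differed from these examples. Of the day 28 set, Kif11, Ccnb1 and Melk held neither an E2F word nor a CHR, and Mki67 held both. Of the day 14 set, Rrm1 held both and Pcna neither. Over the 30 genes, E2F words were present in 6 of the 8 helicase and synthesis promoters and in 4 of the 22 other promoters, against 6.59% of all 27457 promoters. CHR words were present in 3 of those 8 and in 15 of the other 22, against 19.6% of all promoters. A CCAAT box was present in 24 of the 30, against 37.7% of all promoters. A match describes these letters in this window and is not a measured binding site.

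Library totals ran between 13746366 and 26403196 assigned counts, except sorafenib day 28 replicate 3 with 1036483. In that shallow library, 1 count equals 0.835 CPM (counts scaled to 1000000 per library, TMM-normalized), 6 members had no counts, and all 39 members together had 320 counts, against 3830 to 9635 in the other 11 libraries. A count of 0 there allows a level of up to 2.51 CPM, taking 3 counts as the limit, for counting error only. Genes of cardiomyocytes (10 markers such as Myh6 and Tnnt2) summed to 36000 to 82000 CPM over the 12 libraries, which fits the label of heart tissue.

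Members were expressed at low levels, with the 39 genes summing to between 221 and 490 CPM per library. Compared per length, in RPKM (CPM divided by exon length in kilobases, mean over 12 libraries), the level of Pcna, the clamp that holds the DNA polymerase, was 23.5 RPKM. Next came Rrm1, the large subunit of ribonucleotide reductase, at 11.5 RPKM, Tyms, thymidylate synthase, at 8.57 RPKM, and the helicase subunit Mcm7 at 7.31 RPKM. The highest mean of each mitotic role was 2.98 RPKM for Top2a, topoisomerase II alpha, 2.48 RPKM for the cytokinesis kinesin Kif20a, 1.88 RPKM for Cdc20, an activator of the anaphase-promoting complex, and 1.83 RPKM for the checkpoint kinase Bub1. Cdk1, the kinase that drives mitotic entry, had 2.80 RPKM. The lowest was Birc5, a passenger complex protein also known as survivin, at 0.36 RPKM. Exons of Tyms, Foxm1, Aurka, Kif20a and Nusap1 overlap those of Enosf1, Tex52, Fam210b, Cdc23 and Oip5 in turn, and counting used no strand, so values of these 5 members are less certain.

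Libraries of a group differed widely in these genes at day 14, and for most members at once. They differed less at day 28. There sorafenib replicate 3 was the highest of its group for 20 of 39 members and the lowest for 14. Water replicate 2 of day 28 was the highest for 17 and the lowest for 13. The members summed to 221, 268 and 261 CPM in sorafenib hearts at day 28 (replicates 2, 3 and 4) and to 297, 326 and 309 CPM in water hearts (replicates 2, 3 and 4). At day 14 the sums were 425, 239 and 245 CPM in sorafenib hearts (replicates 5, 6 and 7) and 324, 490 and 376 CPM in water hearts (replicates 2, 3 and 7). The groups therefore did not overlap in their sum at day 28, and overlapped at day 14 through replicate 5. That sorafenib library was the highest of its group for 32 of 39 members, and water replicate 3 of day 14 was the highest of its group for 35. The highest library exceeded the lowest by a median of 2.13-fold over members in sorafenib and 1.32-fold in water at day 28, and by 3.31-fold in sorafenib and 1.91-fold in water at day 14.

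**Figure D1:**
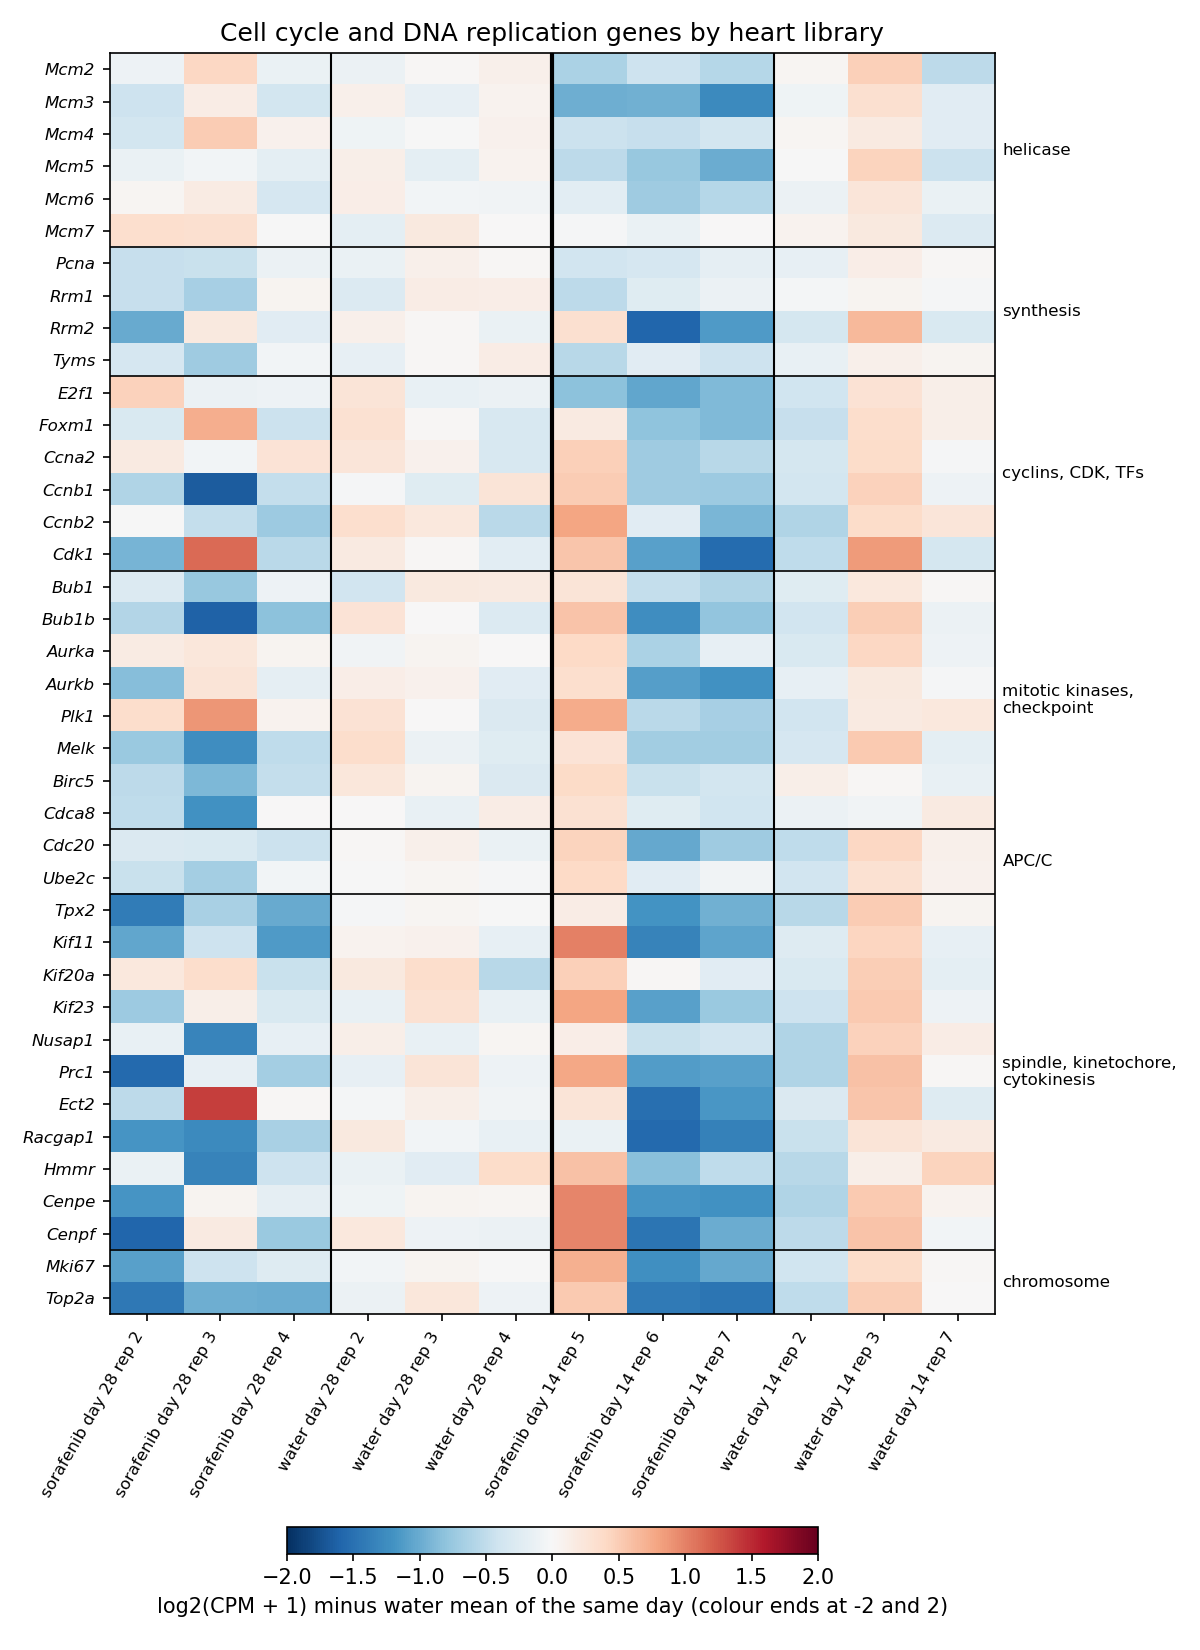
Level of the 39 members (rows, grouped by role) in the 12 libraries (columns), as log2(CPM + 1) minus the water mean of that day; blue is below and red above that mean. Sorafenib replicate 5 of day 14 is red in most mitotic rows and blue in Mcm2 to Mcm6 and E2f1, while replicates 6 and 7 are blue in nearly all rows; at day 28 the mitotic rows at the bottom are bluest.

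The first comparison asks what 14 days of sorafenib did to these genes. Estimates lay below 0 for 37 of the 38 members tested, with a median log2 fold change of -0.31, where 49.8% of all 17406 genes tested lay below 0 with a median of 0.00. Kif20a, at 0.09, was the exception, and Ube2c was too low to test. By edgeR's quasi-likelihood test with Benjamini-Hochberg adjustment over all genes, no member and no gene of the whole table passed an adjusted p of 0.05 (0% of genes in either direction). At an unadjusted p under 0.05, 8 of 38 members were lower and 0 higher, against 6.93% of all genes lower and 7.09% higher. By DESeq2, 2 members passed, E2f1 and Mcm3, both lower, where 185 of all genes were lower (1.06%) and 253 higher (1.45%).

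Of the 7 roles, the helicase had the lowest median at day 14, -0.60. All 6 subunits had estimates below 0, and 5 of them had an unadjusted p under 0.05. Mcm3 (chr9:23219169-23237314 in mRatBN7.2, minus strand), a subunit of the ring that unwinds DNA, had 2.76, 2.82 and 2.06 CPM in sorafenib hearts, against 6, 8.24 and 5.32 CPM in water hearts. Every sorafenib library lay below every water library. The log2 fold change of Mcm3 was -1.35 ± 0.27 (SE), and its adjusted p by edgeR's quasi-likelihood test was 0.114. Mcm5, another subunit, had 5.76, 4.77 and 3.88 CPM in sorafenib hearts, against 8.66, 12.2 and 6.24 CPM in water hearts. Again the groups did not overlap, with a log2 fold change of -0.90 ± 0.28. Mcm2, the subunit often stained as a marker of cells licensed to replicate, had 7.45, 8.80 and 7.81 CPM in sorafenib hearts, against 12.4, 17.2 and 8.09 CPM in water hearts. Here water replicate 7 lay within the sorafenib range, and the log2 fold change was -0.64 ± 0.26. Mcm7, the subunit with the highest level, was nearly level, with 18.0, 16.7 and 18.5 CPM in sorafenib hearts, against 19.4, 21.2 and 15.1 CPM in water hearts, and the groups overlapped. Mcm4 had 12.6, 12.3 and 13.2 CPM in sorafenib hearts, against 18.0, 19.9 and 14.7 CPM in water hearts. Mcm6 had 7.33, 4.94 and 5.51 CPM in sorafenib hearts, against 7.93, 10.5 and 7.82 CPM in water hearts. In both of these subunits the groups were apart, with log2 fold changes of -0.46 ± 0.16 for Mcm4 and -0.56 ± 0.23 for Mcm6.

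E2f1, the transcription factor that switches on replication genes, had 2.70, 2.18 and 2.54 CPM in sorafenib hearts at day 14, against 3.96, 7.02 and 6.08 CPM in water hearts. The groups did not overlap, and the log2 fold change was -1.19 ± 0.28 with an adjusted p of 0.152 by edgeR's quasi-likelihood test. Pcna had 22.5, 23.2 and 25.9 CPM in sorafenib hearts, against 26.3, 32.6 and 30.2 CPM in water hearts, without overlap and with a log2 fold change of -0.31 ± 0.14. Tyms, which makes the thymidine nucleotide, had 39.7, 50.2 and 44.0 CPM in sorafenib hearts, against 52.9, 62.7 and 60.8 CPM in water hearts. These groups did not overlap either, with a log2 fold change of -0.39 ± 0.13. Rrm1 had 26.7, 32.7 and 35.6 CPM in sorafenib hearts, against 37.6, 40.5 and 38.2 CPM in water hearts, again without overlap. Its partner Rrm2, the small subunit of ribonucleotide reductase, had 6.24, 0.92 and 1.64 CPM in sorafenib hearts, against 3.55, 8.09 and 3.69 CPM in water hearts. Rrm2 was high in replicate 5, unlike the other genes of its role.

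Mitotic genes at day 14 were split by replicate 5. Top2a, which untangles chromosomes before they separate, had 32.4, 7.76 and 7.45 CPM in sorafenib hearts, against 15.4, 31.9 and 22.4 CPM in water hearts. Replicate 5 stood above every water library and replicates 6 and 7 below every one, so the groups overlapped, with a log2 fold change of -0.54 ± 0.60. Mki67, the proliferation antigen Ki-67 that coats mitotic chromosomes, had 37.2, 8.91 and 10.4 CPM in sorafenib hearts, against 16.6, 29.1 and 22.7 CPM in water hearts. Cdk1 had 7.15, 1.61 and 0.909 CPM in sorafenib hearts, against 2.92, 8.96 and 3.37 CPM in water hearts. Ccna2, the cyclin of S phase and mitotic entry, had 8.77, 3.33 and 3.82 CPM in sorafenib hearts, against 4.54, 8.09 and 5.97 CPM in water hearts. The pattern of one high and a pair of low treated libraries recurred in these genes. Over all members, replicate 5 lay below every water library in 9 of 39 genes, and replicates 6 and 7 each in 33 of 39.

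The members whose sorafenib libraries all lay below all water libraries at day 14 numbered 8 of 38, against 10.6% of all genes, and none was higher without overlap. They were Mcm3, Mcm4, Mcm5, Mcm6, Pcna, Rrm1, Tyms and E2f1. These are 7 of the 10 helicase and synthesis genes, E2f1, and 0 of the 23 genes of mitotic roles. Without sorafenib replicate 5, 31 of 38 members lay below without overlap, against 17.5% of all genes, and the median log2 fold change of the members was -1.10. That library was chosen after its values were seen, and without it the sorafenib group holds 2 libraries.

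**Figure D2:**
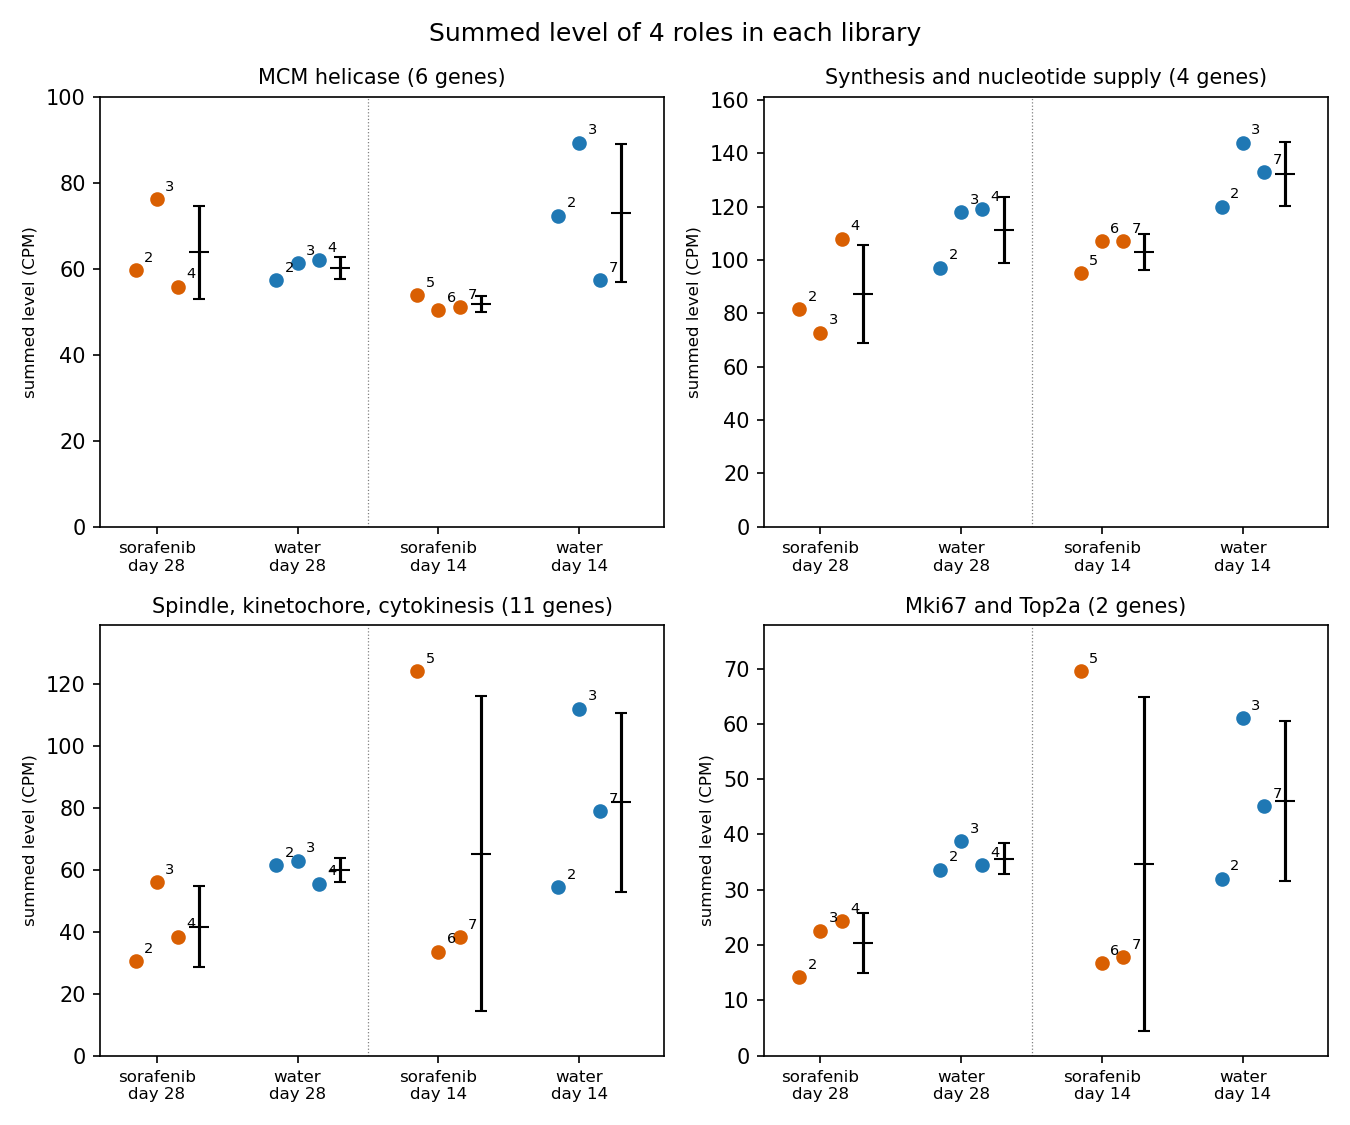
Summed level (CPM) of the genes of 4 roles in each library, sorafenib in orange and water in blue, with replicate numbers beside the points; black bars give the mean and SD of 3 libraries. Helicase sums at day 14 were 53.9, 50.4 and 51.0 CPM in sorafenib hearts, all below the water hearts, while the spindle sum of sorafenib replicate 5 was 124 CPM, above every water library.

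After 28 days of sorafenib the estimates leaned on the mitotic genes. They lay below 0 for 29 of the 37 members tested, with a median log2 fold change of -0.37, where 50.2% of all 17021 genes tested lay below 0 with a median of 0.00. Birc5 and Ube2c were too low to test. By edgeR's quasi-likelihood test with Benjamini-Hochberg adjustment, no member and no gene passed an adjusted p of 0.05 (0% of genes in either direction). At an unadjusted p under 0.05, 8 of 37 members were lower and 0 higher, against 7.83% of all genes lower and 7.04% higher. By DESeq2, 1 member passed, Top2a, which was lower, where 131 of all genes were lower (0.77%) and 148 higher (0.87%).

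Helicase genes were level with their controls at day 28, with a median log2 fold change of -0.01 and 3 of 6 below 0. Mcm3 had 2.48, 4.18 and 2.59 CPM in sorafenib hearts, against 3.98, 3.15 and 3.88 CPM in water hearts. Mcm2 had 10.3, 15.1 and 9.97 CPM in sorafenib hearts, against 10.1, 11.3 and 11.9 CPM in water hearts. Mcm5 had 5.47, 5.85 and 5.18 CPM in sorafenib hearts, against 6.73, 5.22 and 6.44 CPM in water hearts. All of these groups overlapped. Mcm7 had 23.7, 23.4 and 18.4 CPM in sorafenib hearts, against 16.0, 21.4 and 18.6 CPM in water hearts, also with overlap. E2f1 had 4.20, 2.51 and 2.53 CPM in sorafenib hearts, against 3.54, 2.41 and 2.51 CPM in water hearts, a log2 fold change of 0.23 ± 0.41. Pcna had 22.4, 22.6 and 28.5 CPM in sorafenib hearts, against 28.3, 33.5 and 31.8 CPM in water hearts, overlapping by 1 library. Tyms also overlapped by 1 library, with 31.7, 24.2 and 38.8 CPM in sorafenib hearts, against 35.7, 40.7 and 44.5 CPM in water hearts. Rrm1 had 26.9, 23.4 and 39.2 CPM in sorafenib hearts, against 30.9, 41.8 and 41.1 CPM in water hearts, and Rrm2 had 0.518, 2.51 and 1.60 CPM in sorafenib hearts, against 2.26, 2.12 and 1.80 CPM in water hearts. The 4 synthesis and nucleotide supply genes overlapped their controls but all kept estimates below 0, with a median log2 fold change of -0.29 at day 28 and -0.35 at day 14.

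Genes of mitosis had the estimates farthest below 0 at day 28. Spindle, kinetochore and cytokinesis genes had a median log2 fold change of -0.58, with 10 of 11 below 0. Top2a had 4.61, 6.69 and 6.58 CPM in sorafenib hearts, against 12.9, 16.6 and 13 CPM in water hearts. Every sorafenib library lay below every water library, and the log2 fold change was -1.27 ± 0.26 with an adjusted p of 0.139 by edgeR's quasi-likelihood test. Tpx2, which activates Aurora A kinase and nucleates spindle microtubules, had 1.09, 2.51 and 1.73 CPM in sorafenib hearts, against 4.37, 4.63 and 4.45 CPM in water hearts. Its groups did not overlap, with a log2 fold change of -1.52 ± 0.41 and an adjusted p of 0.192 by the same edgeR test. Kif11, the motor that pushes spindle poles apart, had 2.36, 4.18 and 2.13 CPM in sorafenib hearts, against 6.24, 6.31 and 5.12 CPM in water hearts. Mki67 had 9.62, 15.9 and 17.7 CPM in sorafenib hearts, against 20.7, 22.2 and 21.4 CPM in water hearts. Both were without overlap, with log2 fold changes of -1.20 ± 0.37 for Kif11 and -0.58 ± 0.24 for Mki67.

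Racgap1, part of the centralspindlin complex that sets the cleavage plane, had 1.84, 1.67 and 3.12 CPM in sorafenib hearts at day 28, against 6.38, 5.22 and 4.83 CPM in water hearts, without overlap. Bub1b, the checkpoint protein BubR1, had 1.04, 0 and 0.731 CPM in sorafenib hearts, against 2.70, 2.07 and 1.52 CPM in water hearts. Melk, a kinase of mitotic cells, had 0.403, 0 and 0.665 CPM in sorafenib hearts, against 2.01, 1.18 and 0.995 CPM in water hearts. The zeros of Bub1b and Melk are those of the shallow library, where a count of 0 allows up to 2.51 CPM, a level reached by the controls of Bub1b and not exceeded by those of Melk. Ccnb1, the cyclin that pairs with CDK1 at mitotic entry, had 1.09, 0 and 1.26 CPM in sorafenib hearts, against 2.11, 1.68 and 2.79 CPM in water hearts. Prc1, which bundles the midzone microtubules, had 1.61, 5.85 and 3.79 CPM in sorafenib hearts, against 5.89, 8.18 and 6.16 CPM in water hearts. The shallow library of Prc1 lay just under the lowest control. Cdc20 had 2.53, 2.51 and 2.19 CPM in sorafenib hearts, against 3.39, 3.65 and 2.94 CPM in water hearts, close but without overlap.

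Other genes of mitosis and its entry overlapped their controls at day 28. Bub1 had 6.22, 4.18 and 7.18 CPM in sorafenib hearts, against 5.70, 9.07 and 8.95 CPM in water hearts. Ect2, which activates the contractile ring, had 2.36, 11.7 and 3.92 CPM in sorafenib hearts, against 3.73, 4.24 and 3.6 CPM in water hearts. Cdk1 had 1.04, 7.53 and 1.66 CPM in sorafenib hearts, against 3.39, 2.96 and 2.37 CPM in water hearts. Estimates were below 0 for Bub1 (-0.31 ± 0.30) and Cdk1 (-0.34 ± 0.67), and above 0 for Ect2 (0.32 ± 0.53) and Ccna2 (0.23 ± 0.36). The high value of Ect2 and of Cdk1 is that of the shallow library, and the other treated libraries lay below or among the controls for Ect2 and below them for Cdk1. Kif20a had 6.74, 7.53 and 3.92 CPM in sorafenib hearts, against 6.73, 7.54 and 3.6 CPM in water hearts, and Ccna2 had 4.15, 3.34 and 4.45 CPM in sorafenib hearts, against 4.37, 3.79 and 2.61 CPM in water hearts. The mitotic kinases Plk1 and Aurka had estimates above 0, at 0.51 ± 0.48 and 0.20 ± 0.34.

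The remaining members that were tested overlapped between the groups at both days. Log2 fold changes of the kinetochore motor Cenpe were -0.58 ± 0.44 at day 28 and -0.16 ± 0.76 at day 14, and those of the kinetochore protein Cenpf were -0.93 ± 0.45 and -0.16 ± 0.71. Kif23, the kinesin partner of Racgap1 in centralspindlin, had -0.48 ± 0.39 at day 28 and -0.17 ± 0.57 at day 14. The microtubule binders Nusap1 and Hmmr had -0.34 ± 0.35 and -0.50 ± 0.43 at day 28, and -0.32 ± 0.34 and -0.21 ± 0.47 at day 14. Aurkb and Cdca8, a kinase and a scaffold of the chromosomal passenger complex, had -0.59 ± 0.56 and -0.58 ± 0.59 at day 28, and -0.67 ± 0.58 and -0.13 ± 0.40 at day 14. The transcription factor Foxm1 had -0.15 ± 0.45 at day 28 and -0.54 ± 0.39 at day 14, and the cyclin Ccnb2 had -0.52 ± 0.51 at day 28 and -0.01 ± 0.55 at day 14. Birc5, tested within day 14 and not within day 28, had -0.21 ± 0.57 at day 14. Its levels at day 28 were 0.288, 0 and 0.332 CPM in sorafenib hearts, against 1.18, 0.936 and 0.521 CPM in water hearts. Ube2c, the conjugating enzyme of the anaphase-promoting complex, had 0.173, 0 and 0.532 CPM in sorafenib hearts at day 28, against 0.589, 0.640 and 0.568 CPM in water hearts. At day 14 Ube2c had 0.721, 0.115 and 0.242 CPM in sorafenib hearts, against 0, 0.611 and 0.380 CPM in water hearts, too few reads at either day for a test. At day 28 both Birc5 and Ube2c lay below all controls, with the 0 in the shallow library.

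At day 28, 10 of 37 members were below all water libraries without overlap, against 11.9% of all genes, and none was higher. They were Ccnb1, Bub1b, Melk, Cdc20, Tpx2, Kif11, Prc1, Racgap1, Mki67 and Top2a. These are Ccnb1, a cyclin of mitosis, 9 of the 23 genes of mitotic roles, and 0 of the 10 helicase and synthesis genes. Birc5 and Ube2c, which belong to those 23 and also lay below all controls, were not tested and are not among the 9. In the shallow library, 6 of the 10 had 3 or fewer counts and 3 had none, so their place below the controls rests on the other treated libraries. Without that library, 16 of 37 members lay below without overlap, against 17.1% of all genes.

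**Figure D3:**
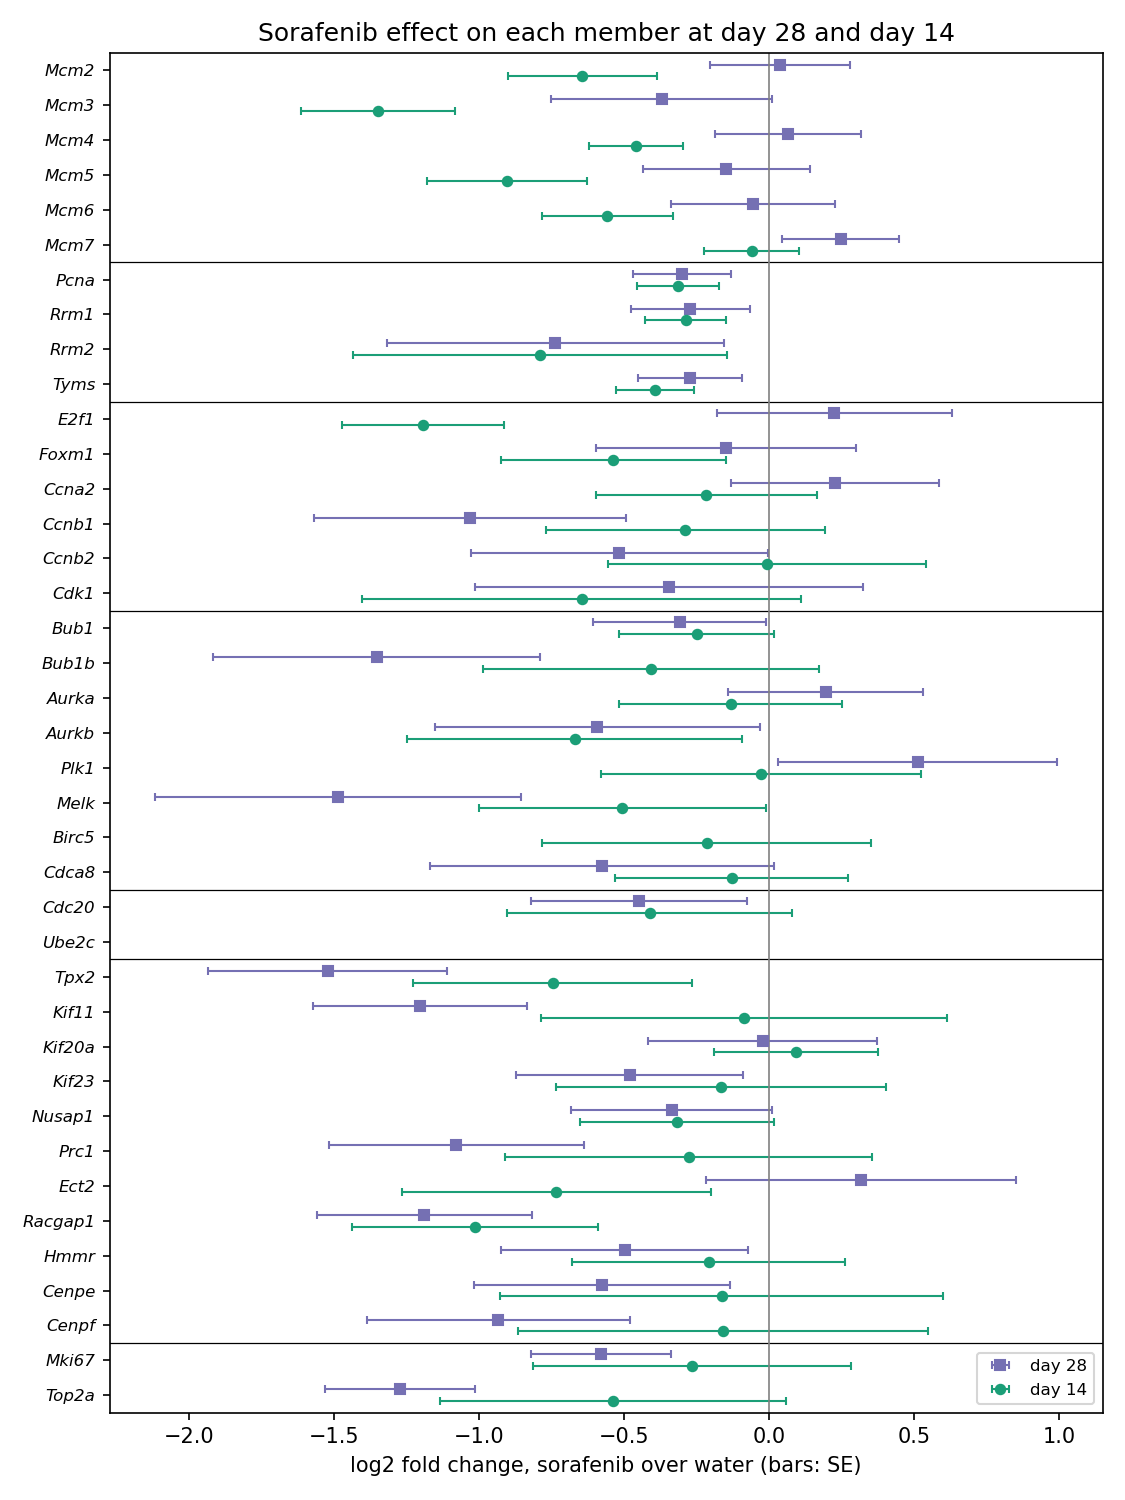
Log2 fold change of sorafenib over water for each member, with SE bars, at day 28 (purple squares) and day 14 (green circles), grouped by role from the helicase at the top to chromosome structure at the bottom. Mcm2 to Mcm6 and E2f1 lie left of 0 at day 14 and closer to 0 at day 28, and Tpx2, Kif11, Prc1 and Top2a lie farther left at day 28 than at day 14.

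No member was below its controls without overlap at both days (0 of 39), against 3.36% of all genes, and none above them, against 2.44%. The 10 genes of day 28 and the 8 of day 14 share none, and 0 of 39 is too small a count to set apart from 3.36%. Mcm3, apart at day 14, overlapped at day 28 only through the shallow library, at 4.18 CPM from 5 counts. Its other treated libraries of day 28, at 2.48 and 2.59 CPM, lay below every control. The contrast between the days was put to the test of the difference itself. That difference is the log2 fold change at day 28 minus that at day 14 in a fit of all 4 groups. No member and no gene of 18174 passed an adjusted p of 0.05 (0% in either direction, edgeR's quasi-likelihood test with Benjamini-Hochberg adjustment), and by DESeq2 no member passed. All 6 helicase genes had differences above 0 (median 0.56), and 10 of 11 spindle, kinetochore and cytokinesis genes had differences below 0 (median -0.35). The 4 synthesis and nucleotide supply genes had differences of -0.01 to 0.10 (median -0.01), the mitotic kinases, checkpoint and passenger genes a median of -0.25 with 5 of 8 below 0, and the cyclins, kinases and transcription factors a median of 0.24 with 2 of 6 below 0. Over the whole list 24 of 39 lay below 0, against 52.1% of all genes. At an unadjusted p under 0.05, 2 of 39 members were higher, E2f1 at 1.40 ± 0.46 and Mcm3 at 0.93 ± 0.42, and 0 were lower, against 2.26% of all genes higher. A count of 2 is too small to set apart from that share, and the change of pattern between the days was not shown for any single gene. Without sorafenib replicate 5 of day 14 the median difference of the members was 0.49, against -0.06 with it.

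**Figure D4:**
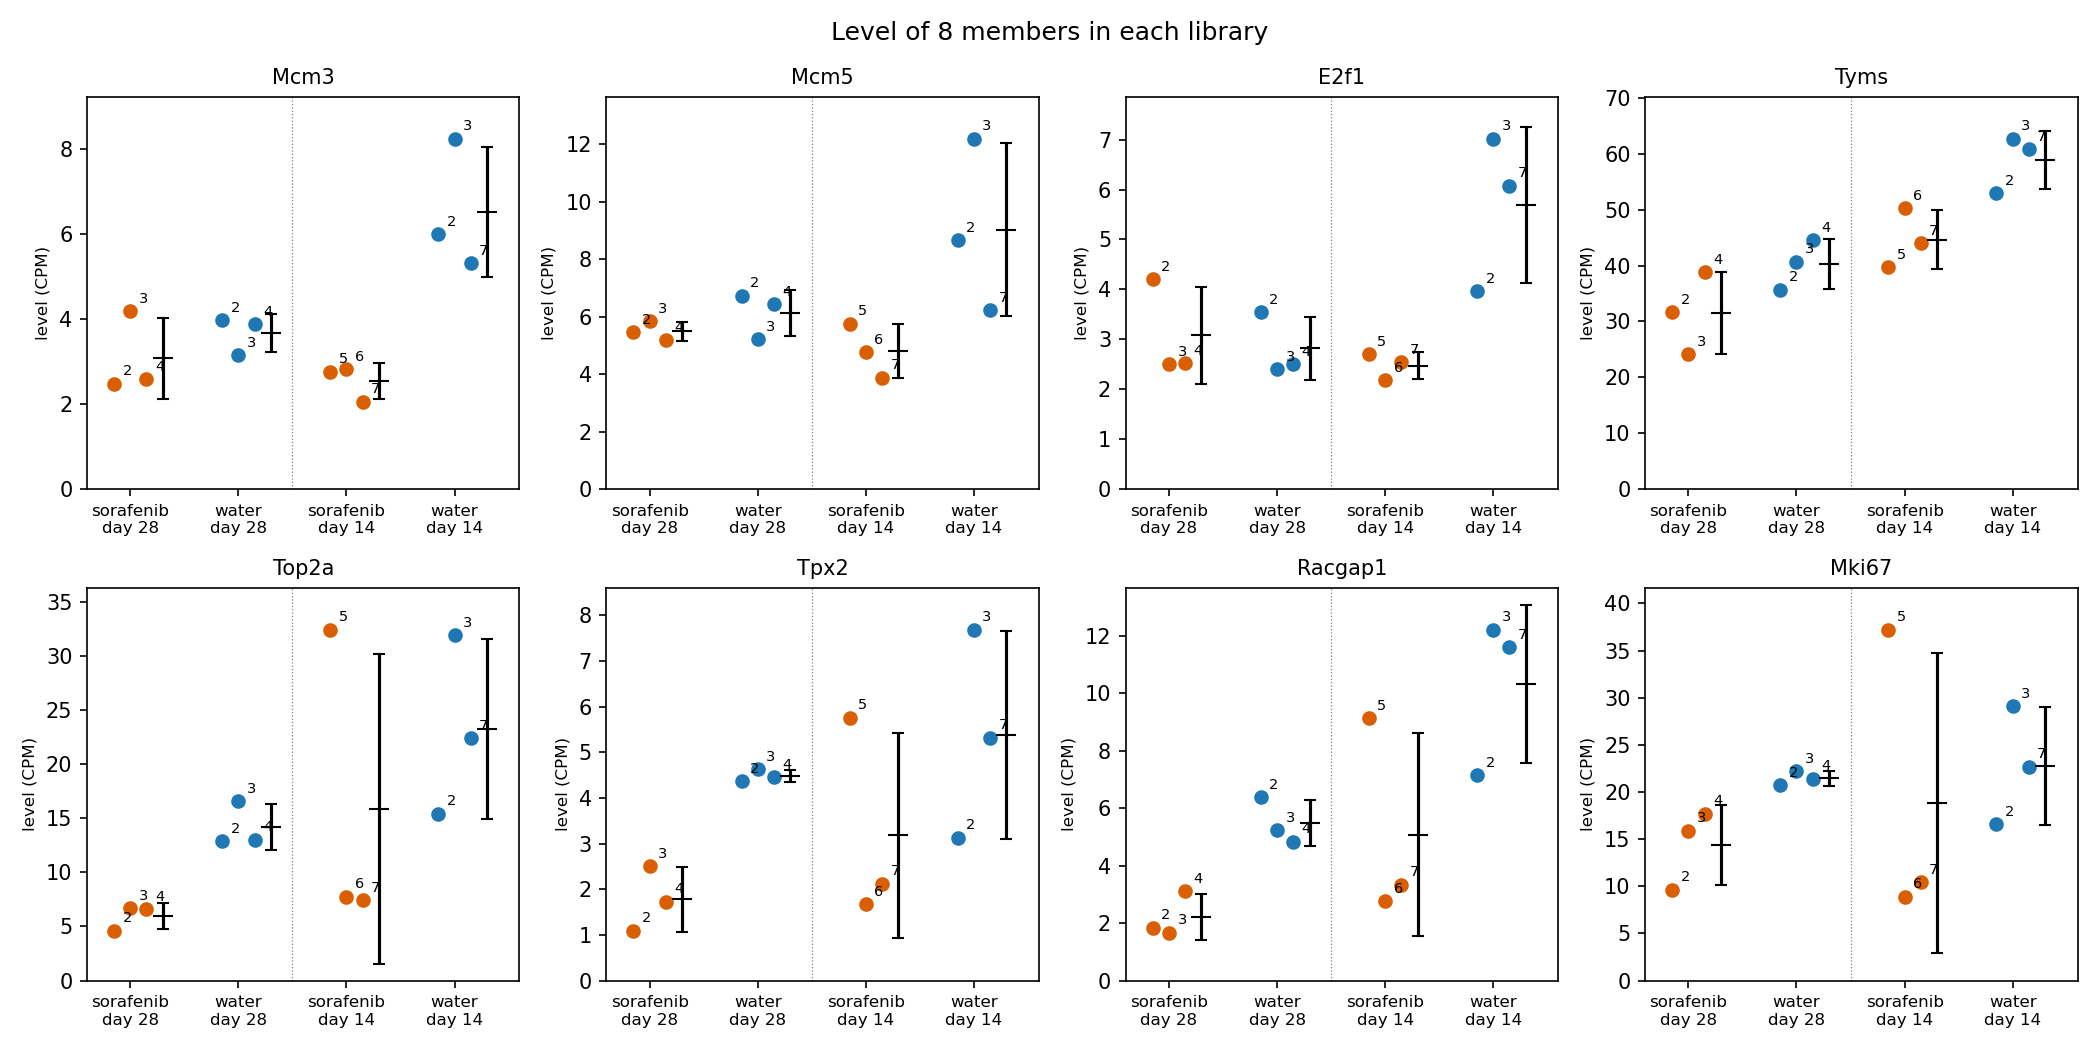
Level (CPM) of 8 members in each library, sorafenib in orange and water in blue, with replicate numbers beside the points; black bars give the mean and SD of 3 libraries. Mcm3, Mcm5, E2f1 and Tyms separate the treatments at day 14, and Top2a, Tpx2, Racgap1 and Mki67 separate them at day 28.

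Averaged over both days, 2 members fell under sorafenib. Mcm3 fell with a log2 fold change of -0.89 ± 0.21 and an adjusted p of 0.0349, and Racgap1 (chr7:130750936-130780891 in mRatBN7.2, minus strand) fell with a log2 fold change of -1.11 ± 0.30 and an adjusted p of 0.0494, both by edgeR's quasi-likelihood test with Benjamini-Hochberg adjustment. Racgap1 at day 14 had 9.13, 2.76 and 3.33 CPM in sorafenib hearts, against 7.15, 12.2 and 11.6 CPM in water hearts, so replicate 5 overlapped the controls. The 2 of 39 members stand beside 2.41% of all 18174 genes that fell and 2% that rose, a count too small to set the members apart from other genes. Below 0 were 35 of 39 members (median -0.39), against 50.8% of all genes. At an unadjusted p under 0.05, 10 of 39 were lower, against 13.2% of all genes. Next by p were Tpx2 at -1.16 ± 0.34 and an adjusted p of 0.0615, Pcna at -0.32 ± 0.11 and 0.0921, and Tyms at -0.35 ± 0.12 and 0.095, by the same edgeR test.

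Both calls are near the threshold and depend on single libraries. Mcm3 passed in 10 of 19 alternative settings, with edgeR or DESeq2 adjusted p between 0.0035 and 0.448, and Racgap1 passed in 5 of 19, with adjusted p between 0.0114 and 0.16. No member passed without sorafenib replicate 6 or 7 or water replicate 2 or 3 of day 14 (0 members each). The same held without sorafenib replicate 2 or water replicate 3 or 4 of day 28 (0 members each). In these settings 0.107% to 0.973% of all genes fell, against 2.41% with all libraries, so calls were fewer over all genes too. Mcm3 alone passed without water replicate 7 of day 14, without sorafenib replicate 3 of day 28 or without water replicate 2 of day 28 (1 member each). Of all genes, 1.15%, 1.79% and 2.17% fell there, in that order. Without sorafenib replicate 5 of day 14, 6 members fell (Prc1, Mki67, Kif11, Tpx2, Racgap1 and Top2a), against 1.61% of all genes, and without sorafenib replicate 4 of day 28, 5 fell (Rrm1, Pcna, Racgap1, Mcm3 and Tyms), against 5.24% of all genes. Without both sorafenib replicate 5 of day 14 and the shallow library, chosen after seeing their values, 12 of 39 members fell, against 2.56% of all genes, and the median was -0.82.

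Each treatment was also compared between the days, with the same libraries as above. In water hearts at day 28 against day 14, 36 of 39 members had estimates below 0 with a median of -0.42, where 54.1% of all 17210 genes tested lay below 0 with a median of -0.05. Tyms (chr9:113313454-113329551 in mRatBN7.2, minus strand) fell, with 35.7, 40.7 and 44.5 CPM at day 28, against 52.9, 62.7 and 60.8 CPM at day 14, without overlap. Its log2 fold change was -0.56 ± 0.13 with an adjusted p of 0.0274 by edgeR's quasi-likelihood test with Benjamini-Hochberg adjustment. That is 1 of 39 members, against 2.63% of all genes that fell and 6.92% that rose. Next were Ect2 at -1.10 ± 0.30 and an adjusted p of 0.0501, and Racgap1 at -0.92 ± 0.26 and 0.0546, by the same edgeR test. Ect2 had 3.73, 4.24 and 3.6 CPM at day 28, against 6.26, 12 and 6.40 CPM at day 14. Without overlap, 11 of 39 members were lower at day 28, against 16.4% of all genes. The Tyms call was lost without water replicate 2, 3 or 7 of day 14 or without water replicate 2 or 3 of day 28 (edgeR adjusted p 0.0536, 0.125, 0.0787, 0.0732 and 0.112 in that order), and at 0.0513 in a fit of all 4 groups.

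In sorafenib hearts at day 28 against day 14, no member passed (0 of 37, edgeR's quasi-likelihood test), against 0.673% of all genes that fell and 1.55% that rose, and no member passed by DESeq2. Estimates lay below 0 for 27 of 37 members, against 50.7% of all genes. At an unadjusted p under 0.05, 6 of 37 were lower and 0 higher, against 7.46% of all genes lower and 9.6% higher. The smallest p belonged to Melk at -1.81 ± 0.66, Top2a at -1.47 ± 0.55 and Bub1b at -1.84 ± 0.73. All 6 helicase genes had estimates above 0 (median 0.21) and all 11 spindle, kinetochore and cytokinesis genes estimates below 0 (median -0.67). Without overlap, 4 of 37 were lower, namely Tyms, Ccnb1, Melk and Top2a, against 11.3% of all genes, a count near that share. Mcm2 alone was higher, 1 of 37 against 11.2% of all genes. Without sorafenib replicate 5 of day 14 the median over members was 0.12, against -0.55 with it. Day and counting table coincide, so time and processing cannot be told apart in either comparison over time.

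Other genes of the cycle were counted from 6 lists chosen by function. Averaged over both days, 2 of 17 G1 cyclins, kinases and pocket proteins fell, and 0 of 17 origin licensing genes, 0 of 22 polymerase, clamp loader and ligase genes, 0 of 6 tested CDK inhibitors, 0 of 11 checkpoint genes and 0 of 18 kinetochore, condensin and cohesin genes passed (edgeR's quasi-likelihood test). Of all genes, 2.41% fell and 2% rose in that test. At an unadjusted p under 0.05 the 6 lists had 6, 2, 0, 1, 1 and 2 genes lower, in that order, and 1, 0, 2, 0, 1 and 1 higher, against 13.2% of all genes lower and 11% higher. Ccnd1, the G1 cyclin D1 that answers to growth factor signals, had 22.8, 21.7 and 33.4 CPM in sorafenib hearts at day 28, against 54.3, 56.4 and 57.6 CPM in water hearts. At day 14 Ccnd1 had 51.0, 32.0 and 54.0 CPM in sorafenib hearts, against 83.8, 102 and 54.5 CPM in water hearts. Every treated library lay below every control at each day, and averaged over the days Ccnd1 fell by 0.94 ± 0.17 on the log2 scale with an edgeR adjusted p of 0.0183. Cdk6, its kinase partner, fell by 0.47 ± 0.12 with an edgeR adjusted p of 0.0423.

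Cdkn1a, the CDK inhibitor p21, changed with time in both treatments. In water hearts it had 138, 204 and 202 CPM at day 28, against 40.2, 30.2 and 72.6 CPM at day 14, and in sorafenib hearts 134, 94.5 and 138 CPM at day 28, against 31.2, 28.7 and 23.6 CPM at day 14. Day 28 lay above day 14 in every library of both treatments. Cdkn1a rose by 1.91 ± 0.32 on the log2 scale in water hearts (adjusted p 0.0126) and by 2.16 ± 0.20 in sorafenib hearts (adjusted p 0.00105), both by edgeR's quasi-likelihood test. For sorafenib against water, averaged over the days, Cdkn1a had a log2 fold change of -0.66 ± 0.19 and an adjusted p of 0.0611 by the same test.

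Markers of the cell types that could divide in the heart were measured beside these results. Myeloid markers (12 genes such as Adgre1, Cybb and C1qa of macrophages) had estimates below 0 in 12 of 12 at each day. Their medians were -0.73 at day 28 and -0.87 at day 14. Averaged over the days, 4 of 12 fell by edgeR's quasi-likelihood test, against 2.41% of all genes. The 12 markers summed to 137, 419 and 224 CPM in sorafenib hearts at day 28, against 305, 318 and 485 CPM in water hearts. At day 14 they summed to 284, 120 and 169 CPM in sorafenib hearts, against 442, 227 and 238 CPM in water hearts. The sums overlapped at both days. Sorafenib replicate 5 of day 14, high in mitotic members, was the highest of its group here and in the endothelial, fibroblast and pericyte sums. Water replicate 2 of day 14, the highest of its group in myeloid markers, was the lowest for 32 of 39 members. At day 28 the library highest in myeloid markers was also highest in the members' sum in sorafenib hearts (replicate 3). In water hearts of day 28 (replicate 4) it was not. Endothelial markers had medians of -0.01 at day 28 and -0.03 at day 14 over 9 tested, and sums of 1610 to 2060 CPM in all libraries. Fibroblast markers had a median of -0.34 at day 28, with 10 of 10 below 0, and 0.03 at day 14, with sums of 3440 to 8070 CPM. Pericyte and smooth muscle markers had medians of -0.30 at day 28 and 0.03 at day 14. Mesothelial markers summed to 52.8, 25 and 27.6 CPM in sorafenib hearts at day 14, against 42.9, 80.1 and 67.5 CPM in water hearts, in the same order within each group as the spindle sums of that day. At day 28 they summed to 25.3, 49.3 and 24.9 CPM in sorafenib hearts, against 33.7, 33.7 and 15.3 CPM in water hearts. There the order in sorafenib hearts differed from that of the spindle sums, which were 30.4, 56 and 38.4 CPM. Wt1 alone gave 41.4 of the 52.8 CPM in sorafenib replicate 5 of day 14. Mesothelial markers had a median log2 fold change of 1.80 at day 28, with 1 of 3 tested below 0. At day 14 it was -1.95, with 5 of 5 tested below 0. Erythroid and blood markers had a median of -0.49 at day 28, with 6 of 8 below 0, and 0.12 at day 14. At day 28, 3 of 8 were lower at an unadjusted p under 0.05, against 7.83% of all genes. The 8 markers summed to 1590, 1020 and 1060 CPM in sorafenib hearts at day 28, against 1630, 1760 and 2510 CPM in water hearts, without overlap. Cardiomyocyte markers had a median of -0.155 at day 28, with 10 of 10 below 0, and 0.07 at day 14, with 3 of 10 below 0. In the shallow library, all 10 lay below every water library of day 28. Their sum was lowest of all 12 libraries in sorafenib replicate 5 of day 14, at 36000 CPM. Lymphocyte markers had medians of 0.17 at day 28 and 0.28 at day 14, and thymocyte markers 0.13 at day 28 and -0.09 at day 14. Their sums over the 12 libraries were 23.3 to 55.9 CPM for lymphocyte and 78.8 to 137 CPM for thymocyte markers. The part of these cell types in the values of the members was not tested.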

How the data were processed

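Heart RNA, depleted of ribosomal RNA, was made into 12 stranded libraries and sequenced from both ends, per the labels' protocols. The files hold whole-number counts of read pairs assigned to each gene, which the authors obtained with featureCounts 2.0.1 in paired mode with no strand setting on an mRatBN7.2 annotation, per the file headers. The submitters' processing notes list STAR, whose version is not given in the sources used here. Each day has its own table, and 2 count columns of the day 14 table match no sample and were not used.

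Groups follow the labels. The tests used edgeR 4.0.16 under R 4.3.3 (quasi-likelihood test, robust dispersion, filterByExpr, TMM), with Benjamini-Hochberg adjusted p under 0.05 as threshold over all genes. Sorafenib was compared with water at each day, averaged and between days in a fit of all 4 groups, and day 28 with day 14 within each treatment. SE is the log2 fold change over the root of F. Levels are TMM-normalized CPM over all 12 libraries. Only the members' rows are printed. As alternatives, DESeq2 1.42.0 replaced edgeR, RLE replaced TMM, the filter was dropped or raised to 1 CPM in 3 libraries, dispersion was not made robust, all groups were fitted together, title numbers served as a block, and libraries were left out one by one. Members, lists and tests were chosen with earlier results of these data known. The text names members past the threshold, the 3 of smallest p per comparison, the highest per length in each role, and 9 genes fixed by name. The code was tested on simulated counts. Replicates differed by a mean chi-square of at least 7.5 per gene, above counting noise, so none was taken for a repeat deposit; this does not show separate animals. In the shallow library 1 count is 0.965 CPM before TMM, against 0.0379 to 0.0727 CPM elsewhere.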

Additional observations from a re-analysis of the deposited data

How the results depend on the processing

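Medians and counts of members kept their direction in the alternatives except as follows. All members past the threshold were lower, and each percentage is the share of all genes called lower in that setting. The day 14 count of members was 2 by DESeq2 (1.06%) and 1 without a filter (0.108%), and the day 28 count was 1 by DESeq2 (0.77%). The average called 1 member with RLE factors (2.12%), with the stricter filter (2.32%) and without robust dispersion (2.23%), 0 to 6 with a library left out (0.107% to 5.24%), and 12 without both libraries that stand apart (2.56%), an alternative chosen after seeing the data. Over all genes the average called 801, and 35 to 1562 with a library left out. In water hearts over time the count was 6 by DESeq2 (5.49%), 4 without a filter (1.88%), 2 with the stricter filter (3.25%), 0 in the fit of all groups (2.7%) and 0 to 2 with a library left out (0.281% to 2.89%).

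With a library left out, the median over members ranged between -1.10 and -0.12 at day 14, between -0.48 and -0.26 at day 28, between -0.73 and -0.29 for the average, between -0.32 and 0.49 for the difference of the days, between -0.60 and -0.16 in water hearts over time and between -0.76 and 0.12 in sorafenib hearts over time. Without both libraries that stand apart it was -0.82 for the average and 0.40 for the difference. Members lower without overlap numbered 8 to 31 at day 14 and 11 to 16 at day 28 with a library left out. Leaving a library out can only keep or raise such a count, for members and for all genes alike. With all libraries the counts were 8 of 38 (10.6% of all genes) and 10 of 37 (11.9%). The count of 31 came without sorafenib replicate 5 of day 14 (17.5% of all genes), and that of 16 without the shallow library (17.1%).

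Nothing in the labels says that a title number marks a shared animal, litter or day. Same-numbered libraries of day 28 correlated at 0.0864, 0.0363 and 0.295, and others of day 28 between -0.297 and 0.161; sorafenib replicate 3 correlated best with another number. At day 14 the treatments share 1 number. The numbers were therefore not used as pairs. With the number as a replicate block, the average called 1 member, Top2a, and not Mcm3 or Racgap1, with 37 genes in all (0.143% of genes lower). The median over members was -0.80. The difference of the days had a median of 0.34. Water hearts over time called 2 members, Ect2 and Tyms, where 4.46% of all genes were called lower, a count too small to set apart from that share. The cause of these moves was not tested.

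Estimates near 0 changed sign in places. Ccna2 for the average was 0.0112 by DESeq2, 0.0130 with RLE factors, 0.000114 without a filter, 0.0337 with the stricter filter and between -0.27 and 0.14 with a library left out. Mcm2 at day 28 was -0.0065 in the fit of all groups and between -0.11 and 0.16 with a library left out. With a library left out, Cdk1 ranged between -1.10 and 0.26 at day 28 and between -2.004 and 0.0345 at day 14, and at day 14 Mki67 ranged between -1.24 and 0.0754 and Ccna2 between -0.79 and 0.035.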

Other observations

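The promoters of the members that lay below their controls without overlap differed in their words, as a description of sets chosen from these data and with no test. Of the 8 promoters at hand for the set of day 28, 1 held an E2F word, 5 a CHR and 6 a CCAAT box. Of the 6 promoters at hand for the set of day 14, 5 held an E2F word, 1 a CHR and 5 a CCAAT box.

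Beyond the members, a few other genes of the 6 lists were called in water hearts over time. Lower were 1 of 17 origin licensing genes and 1 of 11 checkpoint genes. Of 17 G1 genes, 1 was lower and 1 higher, and the same held for 18 kinetochore, condensin and cohesin genes. Of 6 tested CDK inhibitors, 1 was higher (Cdkn1a), and 0 of 22 polymerase, clamp loader and ligase genes passed. Such counts are too small to set apart from the 2.63% of all genes that fell and the 6.92% that rose. Chek1, the checkpoint kinase of replication stress, had 3.00, 2.51 and 2.46 CPM at day 28, against 6.63, 5.95 and 5.16 CPM at day 14, and Ncapg, a condensin subunit, had 2.65, 2.51 and 1.61 CPM at day 28, against 4.49, 7.43 and 4.61 CPM at day 14. The day 28 libraries lay below the day 14 libraries for each, with log2 fold changes of -1.16 ± 0.26 for Chek1 and -1.30 ± 0.33 for Ncapg (adjusted p 0.0254 and 0.0432 by edgeR's quasi-likelihood test). Orc5, an origin recognition subunit, and Rb1, the retinoblastoma pocket protein, fell by 0.66 ± 0.17 and 0.49 ± 0.11 on the log2 scale (edgeR adjusted p 0.046 and 0.0242). Myc, the transcription factor of growth genes, rose, with 13, 11.6 and 13.1 CPM at day 28, against 3.50, 3.00 and 3.04 CPM at day 14, a log2 fold change of 1.97 ± 0.20 (edgeR adjusted p 0.00259). Smc1a, a cohesin subunit, rose by 0.53 ± 0.12 (edgeR adjusted p 0.025). In sorafenib hearts over time, Wee1, the kinase that restrains CDK1, fell by 1.09 ± 0.22 and Cdk6 by 0.82 ± 0.18 on the log2 scale (edgeR adjusted p 0.0309 and 0.0453). These are 1 of 11 checkpoint genes and 1 of 16 tested G1 genes, against 0.673% of all genes that fell, counts too small to set apart. Of 6 tested CDK inhibitors, 1 was higher (Cdkn1a), against 1.55% of all genes, and the other lists had none. Over time, the genes named here were not followed through the alternative settings.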
